A study of Homo sapiens with 6 samples.

Results

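The genes described here encode the respiratory chain and the ATP synthase of the inner mitochondrial membrane. They were the probe sets naming exactly 1 gene whose symbol fits the patterns for NADH dehydrogenase (NDUFA, NDUFB, NDUFC, NDUFS, NDUFV), succinate dehydrogenase (SDH), cytochrome bc1 (UQCR, CYC1), cytochrome c oxidase (COX numbers 4 to 8) and ATP synthase (ATP5) subunits. Where a gene had several such probe sets, the one with the highest mean over all arrays stood for it. This gave 78 genes of 18404 measured, from 84 of 32321 probe sets. Of the 78 genes, 33 belong to complex I, 3 to complex II, 8 to complex III, 14 to complex IV and 16 to complex V. The remaining 4 carry a matching symbol without being a standard subunit, namely the ATP synthase inhibitor ATP5IF1, the subunit g relative ATP5MGL and the pseudogenes ATP5F1EP2 and UQCRBP1.

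The series holds 6 whole-transcript Affymetrix arrays (HuGene 1.0 ST) of RNA from H226, a human lung squamous carcinoma cell line, as 3 pairs. Nutlin-3 cells received 10 µM Nutlin-3, a small molecule that frees p53 from MDM2, for 12 h with the p63 shRNA off. In shp63 ON cells, doxycycline at 1 µg/mL switched on a short hairpin RNA against p63 over 48 h. Control cells had the shRNA off and no agent. Cells of every group carried the inducible shRNA and were plated in RPMI with 10% serum 24 h before treatment. Doxycycline was given to shp63 ON cells only and no group carries another shRNA, so the effects of doxycycline, of any induced hairpin and of p63 loss cannot be told apart. Treatment time also differed, so Nutlin-3 and shp63 ON cells differ in agent and in hours. All arrays come from 1 cell line, and the labels do not say that the replicates were separate cultures, so the p-values measure the spread between these samples, which may be technical.

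Electrons enter the chain from NADH at complex I and from succinate at complex II. They pass through ubiquinone, complex III and cytochrome c to complex IV, where oxygen is reduced, and the proton gradient built on the way drives ATP synthesis in complex V. Most subunits are encoded in the nucleus, and their promoters are known for sites of the factors NRF1 and GABP, which the coactivator PGC-1α (PPARGC1A) assists. The core of complexes I, III, IV and V also holds subunits encoded in mitochondrial DNA, which were not analysed here.

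Values are log2 intensities of a probe set, and differences are log2 fold changes. A gene was called higher or lower at a Benjamini-Hochberg adjusted p under 0.05 from limma, fitted and adjusted over all 18404 genes. The log2 profiles of replicate arrays correlated at 0.997 to 0.998 across genes, and those of arrays of different groups at 0.975 to 0.989. The epithelial markers had mean log2 intensities between 10.19 for EPCAM and 13.39 for KRT8, and the squamous basal keratin KRT5 had 12.18. Of the leukocyte markers, PTPRC had 4.32 and CD3E 5.09, while the macrophage-associated CD68 had 9.63. Of the mesothelial markers, MSLN and BNC1 had 9.90 and 9.94, while CALB2, WT1 and LRRN4 had 6.25, 6.20 and 5.99. In RNA of whole cultures, fewer cells of a type and less RNA per cell cannot be told apart. The gene targeted by the shRNA was not analysed here.

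In shp63 ON cells, some subunit genes of each of the 5 complexes were called higher than in control cells, each by a modest amount. In complex II this was SDHD alone, and 50 of the 78 genes were not called. Of the 78 genes 27 rose, or 34.6%, where 19.7% of all genes did, and 1 fell, or 1.28%, where 16.5% of all genes did. The median log2 fold change of the 78 genes was 0.16, against 0.04 over all genes, and 70 of the 78 had a positive value. The values ran from -0.29 to 0.49, with lower and upper quartiles of 0.07 and 0.28. No member was called with a change of 1.5-fold or more, whereas 1.71% of all genes were called at least 1.5-fold higher and 4.66% at least 1.5-fold lower. Both shp63 ON arrays lay above both control arrays for 54 of the 78 genes (41.3% of all genes) and below both for 7 (30.4% of all genes). Without shp63 ON replicate 1 the members called fell in number to 15, all higher (19.2% of the members, against 10.8% of all genes), without control replicate 1 to 14 higher (17.9% against 10.3%) and without control replicate 2 to 12 higher (15.4% against 8.91%).

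**Figure D1:**
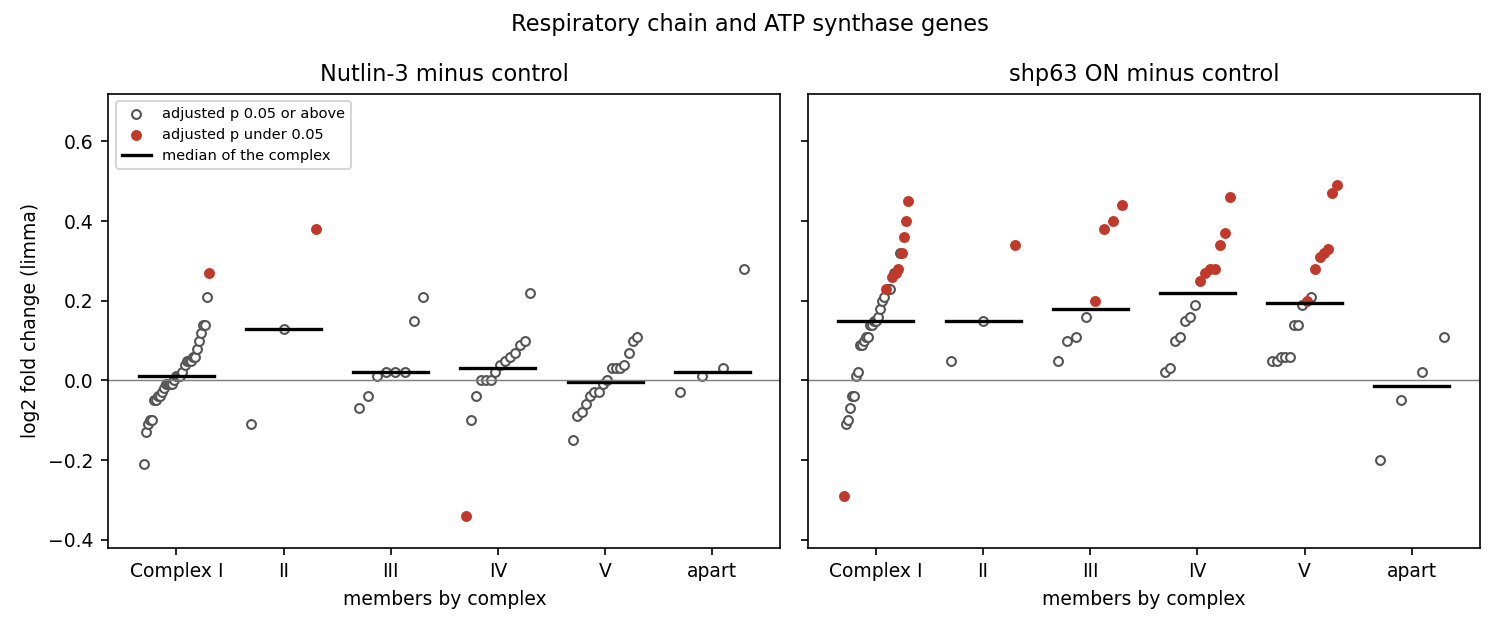
Log2 fold change of each of the 78 genes by complex, with Nutlin-3 minus control on the left and shp63 ON minus control on the right, filled points for genes with a limma adjusted p under 0.05 and a bar at the median of each complex. In shp63 ON the medians of complexes I to V lie between 0.15 and 0.22 and 1 filled point, NDUFB6, lies below 0; with Nutlin-3 the points lie around 0 and 3 are filled.

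By complex, the share that rose was nearest to the 19.7% of all genes in complex I, where 8 of 33 genes rose (24.2%) and 1 fell, with a median log2 fold change of 0.15. In complex II 1 of 3 rose (33.3%, median 0.15), in complex III 4 of 8 (median 0.18), in complex IV 7 of 14 (median 0.22) and in complex V 7 of 16 (43.8%, median 0.20). All genes of complexes II to V had positive values in the probe sets used, while a second probe set of SDHC had -0.17 without being called. Of the 4 genes apart from the complexes none was called by limma, with 1 at an unadjusted p under 0.05, and their median was -0.01. A difference between complexes was not tested. Some markers of other cell types rose in the same arrays. Of 5 leukocyte markers CD68 rose by 0.75 and CD14 by 0.62, and the mean log2 intensity of the list was 6.24 and 6.22 in shp63 ON cells, against 5.92 and 5.92 in control cells. Of 5 endothelial markers CDH5 rose by 0.57 and VWF by 0.31, with a list mean of 6.04 and 5.93 in shp63 ON cells, against 5.86 and 5.75 in control cells. Of 6 stromal fibroblast markers COL3A1 rose by 0.30 and PDGFRB by 0.25, with a list mean of 5.97 and 5.95 in shp63 ON cells, against 5.88 and 5.84 in control cells. The defining markers PTPRC, PECAM1 and DCN had -0.12, -0.05 and 0.04 and were not called. Of genes outside the subunit set, 34.7% rose in the band of mean log2 intensity from 6 to 7, which holds CD14 and COL3A1. The share was 13.7% below 6, with VWF and PDGFRB, 16.9% from 8 to 9, with CDH5, and 13.4% from 9 to 10, with CD68. After cyclic loess, which takes out a trend with intensity, 2 leukocyte, 1 endothelial and 0 stromal fibroblast markers were called higher. The part of these markers in the subunits' values was not tested.

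The promoters of the members are shown because the genes' known regulators are described below. RefSeq promoter windows, from 250 bases before to 50 after each gene's start on GRCh38.p14, were matched to 64 of the 78 genes. The letters GCGCNTGCG, the core of the NRF1 motif with 1 free base, searched on both strands, were in 22 of 64 windows (34.4%), against 7.47% of all 35116 promoter windows of this length. The genes called higher in shp63 ON had them in 11 of 21 windows (52.4%) and the other members in 11 of 43 (25.6%). With a further C required at the 3′ end, the numbers were 16 of 64 windows, 7 of 21 (33.3%) and 9 of 43 (20.9%), against 5.78% of all windows, so the gap between called and other members depends on the letters chosen. The letters CCGGAAG, the core of the ETS motif that GABP binds, were in 18 of 64 windows (28.1%), against 10.3% of all. The letters AAGATGGCG, of the YY1 motif, were in 7 of 64 (10.9%), against 1.75% of all. The windows of all promoters were not matched to those of the members in gene type or base content. The gaps from all windows are therefore not shown to be particular to these genes. The 5 windows below belong to the gene with the largest called rise in each complex among those that hold the NRF1 letters, shown from 5′ to 3′ on the gene's strand with each match in capitals. They are NDUFS7 of complex I (chr19:1383657-1383956, plus strand), SDHD of complex II (chr11:112086623-112086922, plus strand), UQCR10 of complex III (chr22:29767119-29767418, plus strand), COX6A1 of complex IV (chr12:120437863-120438162, plus strand) and ATP5PO of complex V (chr21:33915755-33916054, minus strand).
NDUFS7: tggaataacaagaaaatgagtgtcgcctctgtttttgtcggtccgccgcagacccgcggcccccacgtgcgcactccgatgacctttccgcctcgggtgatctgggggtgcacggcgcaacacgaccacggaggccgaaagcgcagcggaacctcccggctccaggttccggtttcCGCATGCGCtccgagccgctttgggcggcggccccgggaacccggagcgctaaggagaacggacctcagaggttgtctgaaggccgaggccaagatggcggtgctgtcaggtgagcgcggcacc
SDHD: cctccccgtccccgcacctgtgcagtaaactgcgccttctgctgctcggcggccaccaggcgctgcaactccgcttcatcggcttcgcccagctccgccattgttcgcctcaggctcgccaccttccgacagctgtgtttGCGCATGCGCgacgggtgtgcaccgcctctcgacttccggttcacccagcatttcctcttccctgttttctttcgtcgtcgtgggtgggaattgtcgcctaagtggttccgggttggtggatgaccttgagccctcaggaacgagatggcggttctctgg
UQCR10: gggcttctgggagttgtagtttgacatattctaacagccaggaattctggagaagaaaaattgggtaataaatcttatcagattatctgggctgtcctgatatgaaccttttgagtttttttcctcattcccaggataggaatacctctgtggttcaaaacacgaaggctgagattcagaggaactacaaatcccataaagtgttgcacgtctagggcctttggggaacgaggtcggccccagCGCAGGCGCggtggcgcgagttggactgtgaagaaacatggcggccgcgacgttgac
COX6A1: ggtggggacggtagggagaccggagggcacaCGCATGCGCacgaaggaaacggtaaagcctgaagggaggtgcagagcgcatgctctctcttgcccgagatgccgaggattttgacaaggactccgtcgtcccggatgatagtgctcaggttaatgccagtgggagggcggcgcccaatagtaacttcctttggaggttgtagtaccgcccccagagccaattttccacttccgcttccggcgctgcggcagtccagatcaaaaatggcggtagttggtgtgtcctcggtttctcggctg
ATP5PO: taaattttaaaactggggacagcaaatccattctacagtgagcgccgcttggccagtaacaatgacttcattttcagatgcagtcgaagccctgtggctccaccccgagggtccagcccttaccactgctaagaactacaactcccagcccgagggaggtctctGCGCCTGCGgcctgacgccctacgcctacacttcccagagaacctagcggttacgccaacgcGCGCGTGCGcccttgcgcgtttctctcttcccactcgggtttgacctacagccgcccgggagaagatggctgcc
SDHD and ATP5PO hold 2 matches each, which overlap in SDHD. A match describes the letters of the window and shows no binding.

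Complex I takes electrons from NADH through flavin and iron-sulfur clusters in its peripheral arm and pumps protons in its membrane arm. Of its nuclear-encoded core subunits 4 of 6 rose, with a median log2 fold change of 0.30. Of its accessory subunits 4 of 27 rose (14.8%, under the 19.7% of all genes) and 1 fell, with a median of 0.14, and the difference between core and accessory genes was not tested. NDUFS7, which holds the last iron-sulfur cluster before ubiquinone, had log2 intensities of 8.72 and 8.59 in shp63 ON cells, against 8.26 and 8.26 in control cells. The groups did not overlap, and the log2 fold change was 0.40 ± 0.07 (SE, limma adjusted p = 0.00481). NDUFS8, another iron-sulfur core subunit, was at 9.38 and 9.51 in shp63 ON cells and at 9.07 and 9.10 in control cells, a change of 0.36 ± 0.08 (adjusted p = 0.0134). The core subunits NDUFS1 and NDUFS3 rose by 0.28 and 0.26. NDUFV1, which binds NADH and the flavin, and its neighbour NDUFV2 had log2 fold changes of 0.23 and 0.32 without being called (adjusted p = 0.0916 and 0.091), and the 2 shp63 ON arrays of NDUFV2 lay far apart, at 10.20 and 10.62. A second probe set of NDUFV2 had -0.58 without being called, in a fit over all probe sets. The value of NDUFV2 and its part in the core median are therefore uncertain.

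Among the accessory subunits of complex I, the small membrane subunit NDUFA1 rose furthest. It was at 8.70 on both shp63 ON arrays, against 8.15 and 8.35 in control cells, a log2 fold change of 0.45 ± 0.08 (SE, limma adjusted p = 0.00485). The control arrays of this gene differed more from each other than the shp63 ON arrays did, and they stayed below them. NDUFB5, NDUFA8 and NDUFA6 rose by 0.32, 0.27 and 0.23. NDUFB6, a membrane arm subunit, was the 1 member that fell: its log2 intensity was 7.20 and 7.24 in shp63 ON cells and 7.49 and 7.52 in control cells, a change of -0.29 ± 0.06 (adjusted p = 0.0119). Both shp63 ON values lay below every other array of the series for this gene. The remaining 22 accessory genes were not called and ran from -0.11 for NDUFA5 to 0.27 for NDUFA3.

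Complex II oxidises succinate in the tricarboxylic acid cycle and is the only complex with no subunit in mitochondrial DNA. SDHD, a membrane anchor, had log2 intensities of 11.48 and 11.23 in shp63 ON cells, against 11.00 and 11.03 in control cells. The values did not overlap, and SDHD rose by 0.34 ± 0.09 (SE, limma adjusted p = 0.0214). The other anchor, SDHC, was at 0.15 (adjusted p = 0.0797) and the flavoprotein SDHA at 0.05 (adjusted p = 0.678). In a fit over all probe sets, a second probe set of SDHC had -0.17 without being called. A second one of SDHD had 0.52 (limma adjusted p = 0.0176). The value of SDHC, and with it the median of this complex, depends on the probe set used.

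In complex III, which passes electrons from ubiquinol to cytochrome c, the small subunit UQCR10 was at 9.76 and 9.87 in shp63 ON cells and at 9.37 and 9.38 in control cells. It rose by 0.44 ± 0.07 (SE, limma adjusted p = 0.00272), with both shp63 ON arrays above all 4 other arrays. The core protein UQCRC1, at 9.92 and 9.88 in shp63 ON cells against 9.44 and 9.56 in control cells, rose by 0.40 ± 0.07 (adjusted p = 0.00396). UQCRB, a subunit at the ubiquinone site, was at 8.25 and 8.24 in shp63 ON cells and at 7.92 and 7.81 in control cells, a change of 0.38 ± 0.07 (adjusted p = 0.00527). Cytochrome c1 (CYC1), which carries the haem that hands electrons to cytochrome c, rose by 0.20. The others, UQCRC2, UQCRH, UQCRQ and UQCR11, had values between 0.05 and 0.16 and were not called. UQCRH varied most between its control arrays, at 6.22 and 6.70, and shares sequence with UQCRHL, so its signal is uncertain.

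Complex IV reduces oxygen at the end of the chain, and its measured genes are the nuclear subunits around the catalytic core. COX6B1, which lies at the dimer interface, had log2 intensities of 11.45 and 11.36 in shp63 ON cells, against 10.98 and 11.09 in control cells, and rose by 0.37 ± 0.09 (SE, limma adjusted p = 0.0139). COX6A1, the widely expressed form of subunit VIa, rose by 0.34, and COX5A and COX5B by 0.28 and 0.27. The widely expressed genes COX8A, COX7A2, COX7B, COX6C and COX7C had values of 0.02 to 0.19 and were not called.

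Of the 5 isoforms of complex IV subunits known for muscle or testis, 3 rose in shp63 ON cells, where 19.7% of all genes did. COX7A1, the heart and muscle form of subunit VIIa, was at 6.20 on both shp63 ON arrays and at 5.72 and 5.75 in control cells, a log2 fold change of 0.46 ± 0.06 (SE, limma adjusted p = 0.00125). COX6A2, the muscle form of subunit VIa, was at 8.04 and 7.86 in shp63 ON cells, against 7.68 and 7.72 in control cells, and rose by 0.25 ± 0.08 (adjusted p = 0.0377). The testis form COX8C rose by 0.28, with log2 intensities of 5.11 and 5.15 in shp63 ON cells and 4.89 and 4.80 in control cells. For each of these 3 genes the groups did not overlap. COX7B2 and COX6B2, also known from testis, were at 0.15 and 0.10 and were not called. COX7A1, COX8C and COX7B2 have a mean log2 intensity under 6, and a filter at that level leaves them out. Of the genes outside the subunit set under 6, 13.7% rose and 2.85% fell, with a median of 0.08. After cyclic loess 2 of the 5 isoforms were called higher, where 13.3% of all genes were. Without the 5 isoforms, 4 of 9 complex IV genes rose with a median of 0.19, against 7 of 14 and 0.22 with them.

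In complex V, ATP5PO rose furthest of all 78 genes. It encodes the oligomycin sensitivity conferring protein, which ties the catalytic F1 head to the peripheral stalk. Its log2 intensities were 10.15 and 10.19 in shp63 ON cells, against 9.67 and 9.70 in control cells, a log2 fold change of 0.49 ± 0.06 (SE, limma adjusted p = 0.00116), or 1.40-fold. ATP5F1D, the delta subunit of the rotating central stalk, was at 10.32 and 10.28 in shp63 ON cells and at 9.72 and 9.94 in control cells, a change of 0.47 ± 0.08 (adjusted p = 0.00457). In both genes the shp63 ON arrays differed from each other by far less than from the control arrays.

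ATP5F1A, the alpha subunit, rose by 0.31, while the beta subunit ATP5F1B, which carries the catalytic sites, had a value of 0.14 (limma adjusted p = 0.13) and the gamma subunit ATP5F1C one of 0.05 (adjusted p = 0.62). Of the 3 genes for the proton-carrying c subunit, which encode the same mature protein, ATP5MC3 and ATP5MC1 rose by 0.32 and 0.28, and ATP5MC2 had 0.06 without being called. ATP5ME, a membrane subunit at the dimer interface, rose by 0.33 and was called in 18 of 18 settings. The stalk subunit ATP5PF rose by 0.20 (adjusted p = 0.046) and was called in 7 of 18. The other stalk genes ATP5PD and ATP5PB had 0.14 and 0.06, and neither was called.

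**Figure D2:**
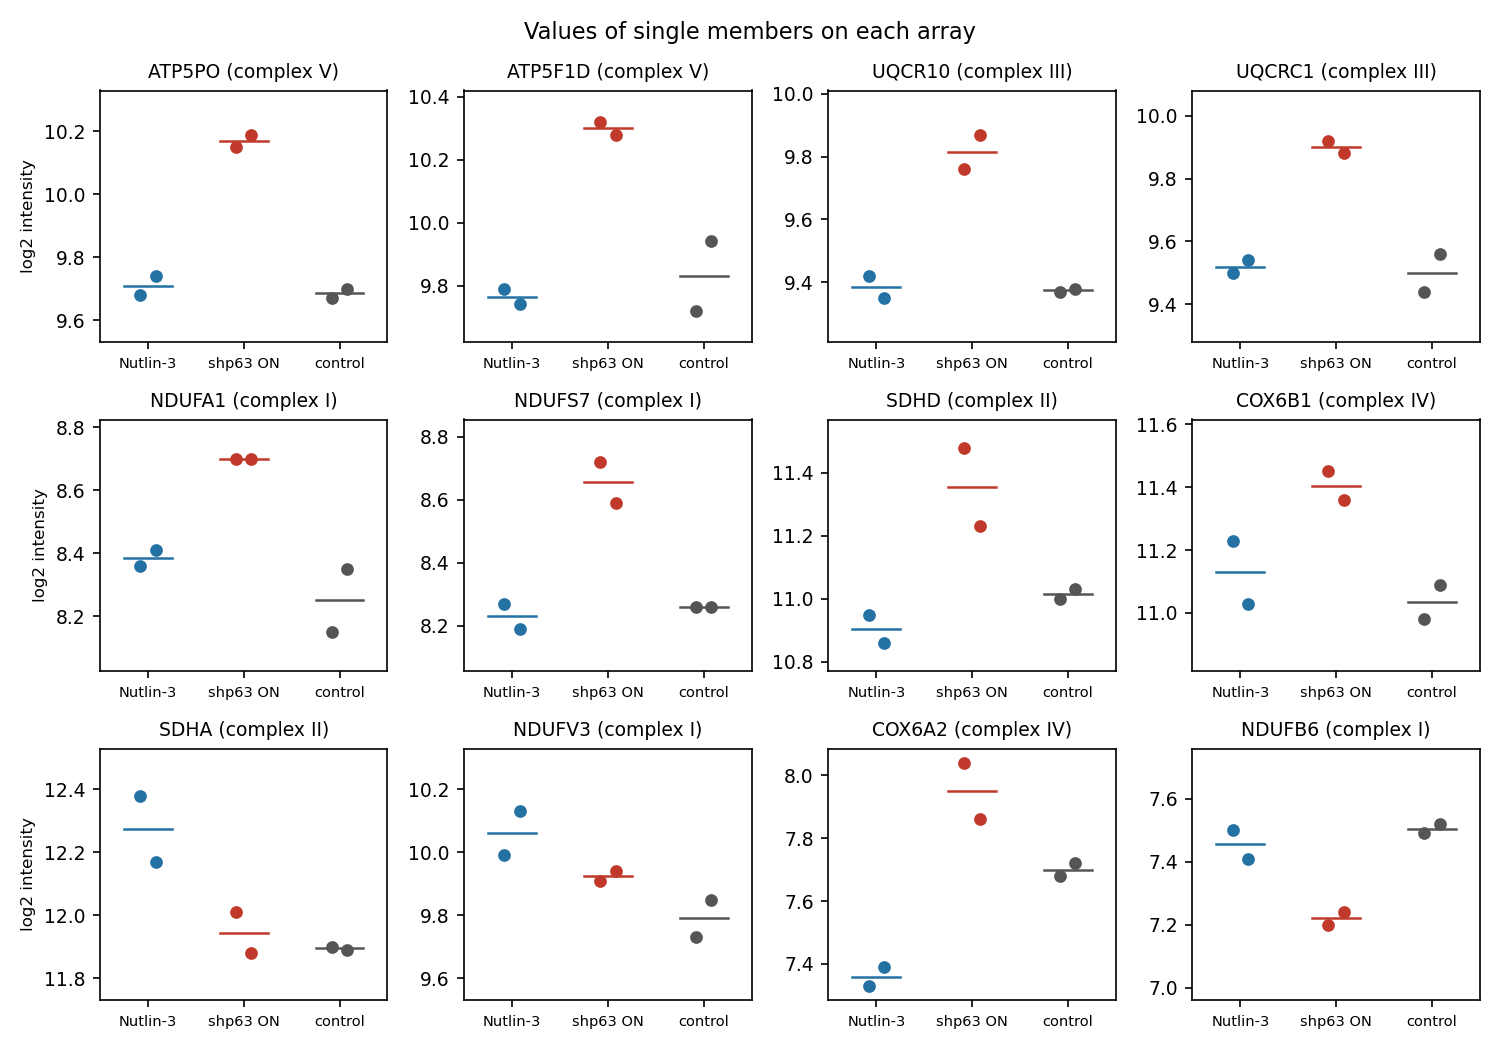
Log2 intensity on each array for 12 members, 1 panel each with its own vertical axis, with the Nutlin-3 arrays left, the shp63 ON arrays in the middle, the control arrays right and a line at the mean of the 2 arrays. The shp63 ON points of ATP5PO, UQCR10 and NDUFS7 lie above all their Nutlin-3 and control points, those of NDUFB6 lie below them, and the Nutlin-3 points of SDHA lie above the rest.

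The direction of change in shp63 ON cells moved with probe set intensity over the array as a whole, so the members were set beside other genes of like intensity. In the band of mean log2 intensity from 9 to 10, the median log2 fold change was 0.21 for the 15 members and -0.07 for the 2078 other genes. It was 0.20 and -0.06 between 10 and 11, and 0.18 and -0.03 between 11 and 12. Between 12 and 16 it was 0.16 for 7 members and -0.04 for 254 other genes. Of the members between 9 and 10, 7 of 15 rose, where 13.4% of other genes of that band did. Between 8 and 9 the median was 0.10 for 14 members, of which 5 rose, and -0.06 for the other genes, of which 16.9% rose. Between 7 and 8 it was 0.10 for 9 members and 0.03 for the other genes. Between 6 and 7 the median of 5 members, 0.11, lay under the 0.17 of the other genes. After cyclic loess, which takes out a trend with intensity, 32 members were called higher, or 41.0% where 13.3% of all genes were, and 2 lower, where 16.3% of all genes were, with a median of 0.21.

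**Figure D3:**
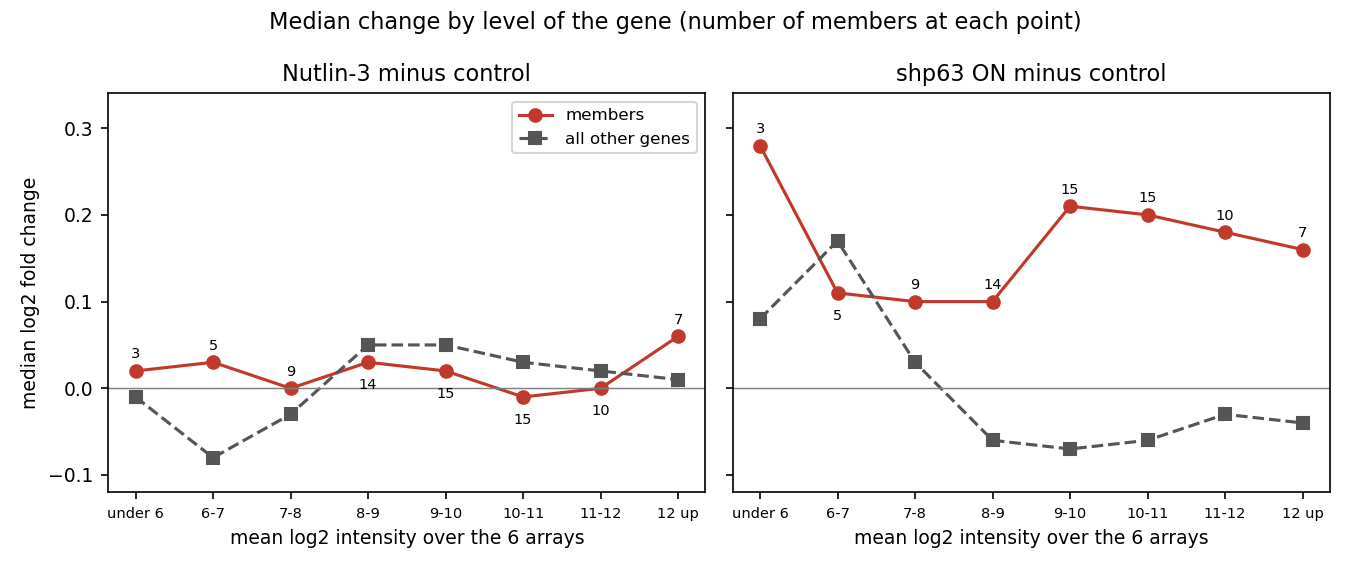
Median log2 fold change by band of mean log2 intensity, for the members (circles, with their number) and for all other genes (squares), in each comparison with control. In shp63 ON the members lie above the other genes in every band except that from 6 to 7, and with Nutlin-3 both lie near 0.

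With Nutlin-3 the set as a whole lay close to control cells. Of the 78 genes 2 rose (2.56%, where 9.64% of all genes did) and 1 fell (1.28%, where 8.89% of all genes did), and 7 had an unadjusted p under 0.05. The median log2 fold change was 0.01, and -0.00 over all genes. By complex the medians were 0.01, 0.13, 0.02, 0.03 and -0.00 for I to V, and no gene of complexes III and V was called by limma, where 1 and 0 had an unadjusted p under 0.05. Both Nutlin-3 arrays lay above both control arrays for 16 of the 78 genes (30.2% of all genes) and below both for 14 (30.3% of all genes).

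SDHA, the catalytic flavoprotein of complex II, was the member that rose furthest with Nutlin-3. Its log2 intensities were 12.38 and 12.17 in Nutlin-3 cells, against 11.90 and 11.89 in control cells. The values did not overlap, and the log2 fold change was 0.38 ± 0.09 (SE, limma adjusted p = 0.0219). Probe sets that name SDHA together with its pseudogenes were at 0.34 and 0.33 without being called, in a fit over all probe sets. In that fit limma called no member with Nutlin-3, SDHA included, while 7 had an unadjusted p under 0.05. Signal from SDHA and from those copies cannot be fully told apart on the array. NDUFV3, a small accessory subunit of complex I, was at 9.99 and 10.13 in Nutlin-3 cells and at 9.73 and 9.85 in control cells, and rose by 0.27 ± 0.08 (adjusted p = 0.0441).

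COX6A2 fell with Nutlin-3. It was at 7.33 and 7.39 in Nutlin-3 cells, against 7.68 and 7.72 in control cells, a log2 fold change of -0.34 ± 0.08 (SE, limma adjusted p = 0.0222). It was the 1 member called in both comparisons with control, and in opposite directions, so that its 3 groups of arrays did not overlap. Its rise in shp63 ON cells was past the threshold in 10 of 17 alternative settings, with adjusted p-values of 0.0183 to 0.189. For Nutlin-3 against control, over the same alternatives, SDHA was past the threshold in 12, COX6A2 in 11 and NDUFV3 in 7, with adjusted p-values of 0.0015 to 0.146, 0.0128 to 0.125 and 0.00869 to 0.232.

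Set against Nutlin-3 cells directly, shp63 ON cells had 34 members higher (43.6%, where 27.5% of all genes were) and 3 lower (3.85%, where 24.0% of all genes were). The median log2 fold change of the members was 0.16, and 0.03 over all genes. In complex V 10 of 16 genes were higher (median 0.25), in complex IV 7 of 14 (0.19), in complex I 13 of 33 with 1 lower (0.17) and in complex III 3 of 8 (0.15). COX6A2 differed most, by 0.59 ± 0.08 (SE, limma adjusted p = 0.000666), with its values given above. ATP5F1D followed with 10.32 and 10.28 in shp63 ON cells, against 9.79 and 9.74 in Nutlin-3 cells, a difference of 0.54 ± 0.08 (adjusted p = 0.00139). ATP5PO, SDHD and UQCR10 were higher by 0.46, 0.45 and 0.43. SDHA was lower in shp63 ON than in Nutlin-3 cells, by -0.33 ± 0.09 on the log2 scale (adjusted p = 0.0145), and NDUFB6 and the pseudogene UQCRBP1 by -0.24 and -0.21. This comparison shares its arrays with both comparisons with control, so its calls are no separate evidence.

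Assembly factors, which build the complexes without staying in them, fell more often than they rose. Of 42 measured, 3 rose (7.14%, where 19.7% of all genes did) and 13 fell (31.0%, where 16.5% did) in shp63 ON cells, with a median log2 fold change of -0.10. The list's mean log2 intensity was 8.26. Between 8 and 9, 16.9% of the genes outside the subunit set rose and 28.6% fell, so the share of falls was near that of genes of like intensity. COA7, needed for complex IV assembly, was at 7.07 and 6.87 in shp63 ON cells, against 7.86 and 7.75 in control cells, a change of -0.84 ± 0.09 (SE, limma adjusted p = 0.000438). BCS1L, which inserts the Rieske protein into complex III, fell by 0.59 and NUBPL, which delivers iron-sulfur clusters to complex I, fell by 0.46. TTC19, a complex III factor, rose by 0.49, the copper chaperone SCO2 by 0.39 and the haem A synthesis enzyme COX10 by 0.29. With Nutlin-3 4 assembly factors were called higher, at 9.52% close to the 9.64% of all genes, and limma called none lower, where 8.89% of all genes were. The median was 0.07, and 10 of the 42 had an unadjusted p under 0.05. Those called higher included UQCC1 at 0.55, NDUFAF1 at 0.54 and ATPAF2 at 0.33.

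Of 19 regulators of mitochondrial biogenesis, 2 rose (10.5%, where 19.7% of all genes did) and 9 fell (47.4%, where 16.5% did) in shp63 ON cells, with a median log2 fold change of -0.27. Their mean log2 intensity was 8.15, and 28.6% of the genes outside the subunit set between 8 and 9 fell. PPARGC1A was at 11.32 and 11.23 in shp63 ON cells, against 10.26 and 10.19 in control cells, and rose by 1.06 ± 0.07 (SE, limma adjusted p = 7.29e-05), or 2.08-fold. With Nutlin-3 it was at 9.55 and 9.67 and fell by 0.61 on the log2 scale (adjusted p = 0.0013), so its 3 groups of arrays did not overlap. The mitochondrial RNA polymerase POLRMT rose by 0.22 in shp63 ON cells. MYC, a transcription factor that promotes growth and mitochondrial biogenesis, fell by 1.54, the mitochondrial DNA helicase TWNK by 0.79 and TFAM, which packages mitochondrial DNA, by 0.78. TFAM was at 7.82 and 7.95 in shp63 ON cells, against 8.65 and 8.68 in control cells. With Nutlin-3 4 of the 19 rose (21.1%, where 9.64% of all genes did), among them TFB2M by 0.34, POLG2 by 0.30 and MTERF1 by 0.29.

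The factors whose motifs are described above are named here after their values were seen. NRF1 had a log2 fold change of 0.03 in shp63 ON cells (limma adjusted p = 0.748) and of -0.03 with Nutlin-3 (adjusted p = 0.824). GABPA, the DNA-binding subunit of GABP, rose by 0.25 with Nutlin-3 (adjusted p = 0.0325) and fell by 0.35 in shp63 ON cells (adjusted p = 0.00491). GABPA has 2 probe sets, and these values are only those of the one with the highest mean, so they are uncertain for the gene. Whether any of these factors had a part in the subunits' values was not tested.

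The tricarboxylic acid cycle and its entry enzyme, which feed the chain, gave a share of rises near that of all genes. Their median change lay nearer to that of the subunits. Of 17 measured genes 4 rose in shp63 ON cells (23.5%, where 19.7% of all genes did). Limma called none lower, where 16.5% of all genes were, and 6 had an unadjusted p under 0.05. Their median log2 fold change was 0.13, against 0.16 for the subunits, and 15 of the 17 had a positive value. The list's mean log2 intensity was 10.31. Between 10 and 11 the genes outside the subunit set had a median of -0.06, and 14.3% of them rose. After cyclic loess 6 of the 17 were called higher, where 13.3% of all genes were, with a median of 0.19. IDH2, the mitochondrial NADP-dependent isocitrate dehydrogenase, was at 10.67 and 10.68 in shp63 ON cells, against 10.00 and 9.93 in control cells, a change of 0.71 ± 0.07 (SE, limma adjusted p = 0.00029). OGDH, of the oxoglutarate dehydrogenase complex, rose by 0.56 and PDHA1, of pyruvate dehydrogenase, by 0.44. With Nutlin-3 IDH2 fell by 0.38, the only call by limma among the 17, where 3 had an unadjusted p under 0.05.

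**Figure D4:**
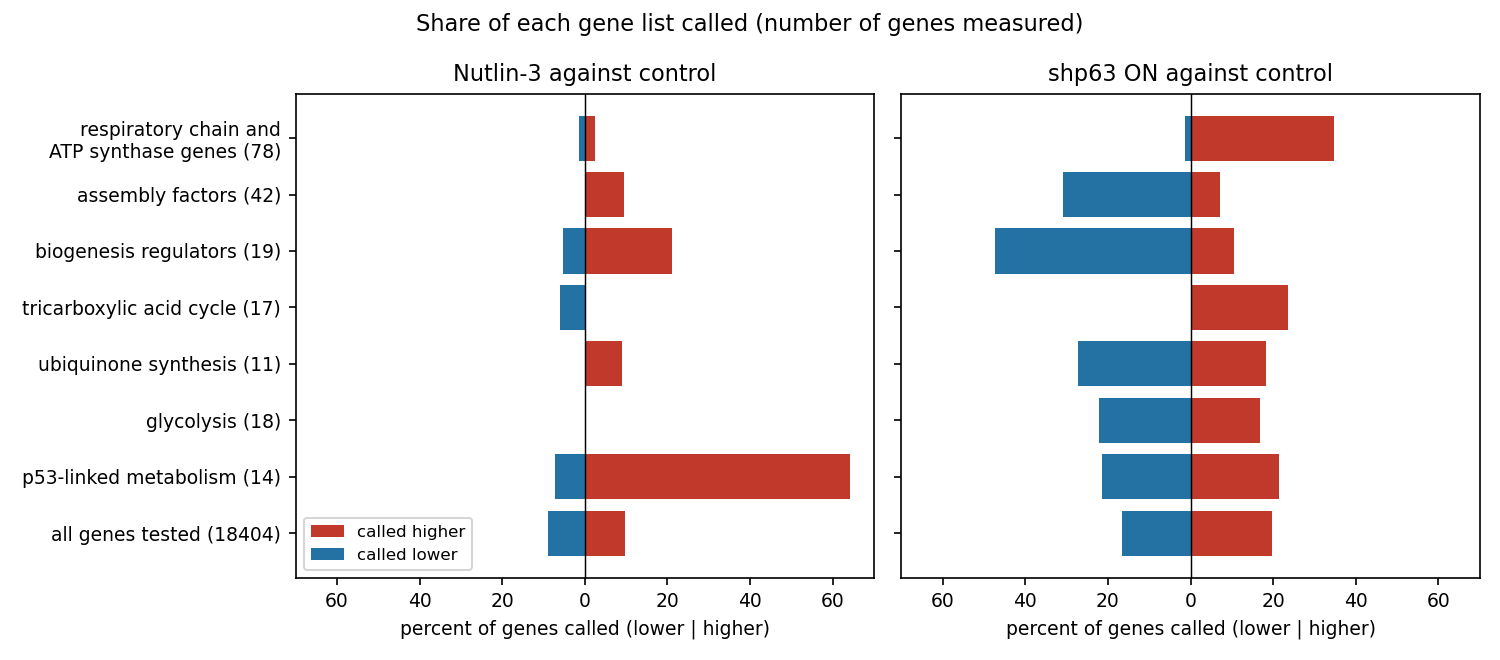
Share of the genes called higher and lower in the subunit set, in each related list and among all genes, for Nutlin-3 against control and shp63 ON against control. In shp63 ON the subunits have 34.6% higher and 1.28% lower, the assembly factors 7.14% and 31.0%, and the biogenesis regulators 10.5% and 47.4%. The shares are not matched for intensity.

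A list of subunits and close relatives whose symbols lie outside the patterns held 6 measured genes, of which 1 rose in shp63 ON cells (16.7%, where 19.7% of all genes did). COX4I2, the lung isoform of complex IV subunit IV, rose by 0.36 (limma adjusted p = 0.00937), at 6.20 and 6.22 against 5.86 and 5.83 in control cells. Its widely expressed counterpart COX4I1 had a value of 0.17 (adjusted p = 0.0785). With Nutlin-3 limma called none of the 6, and 1 had an unadjusted p under 0.05.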

How the data were processed

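Total RNA was extracted with Tri reagent and labelled by the Affymetrix protocol, per the labels. The values deposited by the authors are on a log2 scale, as read from their range of 2.94 to 14.9, and array medians lay between 6.57 and 6.70. The submitters' processing notes name Partek, and the design text names an analysis of variance. For background correction, normalization and probe summary, no method is named in the labels. Of 32321 probe sets 19158 name 1 gene in the platform annotation, 1388 several and 11775 none. Only the first were used, which left out 8 probe sets that name a matching gene with others. For the 6 members with several probe sets, the one with the highest mean stood for the gene.

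Groups were taken from the sample titles. A model with 1 mean for each group, over the 6 arrays together, used limma 3.58.1 (R 4.3.3; eBayes without trend) and was tested on simulated data. There 200 of 18404 genes were changed, fewer than were called in the data. The adjustment was thus stricter there, and recovery in the data may differ. In each comparison with control the model recovered 5 of 50 log2 changes of 0.25 and 44 of 50 of 0.5. A member not called is therefore not shown to be unchanged. Benjamini-Hochberg adjustment ran over 18404 genes. An exact permutation test of 2 arrays against 2 cannot give a two-sided p under 0.333. Precision is limited by the number of arrays, which carry no read depth. Lists are described by counts and medians, with no set test. Promoter windows came from RefSeq, and the motifs were searched with Python 3.11.15. The shorter NRF1 letters were chosen after the longer form had been counted.

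The members and the lists were chosen with earlier results of these data known. Named members are, per complex and comparison with control, up to 6 called members per direction by size, the members with the highest and lowest mean, every tissue isoform and every member with a paralog for the same subunit, and the 5 largest differences per direction between shp63 ON and Nutlin-3. From each list up to 3 called genes per direction are named. Replicate numbers did not pair the arrays, since the deviations of same-numbered arrays from their group means correlated at 0.107, -0.062 and -0.0162 over genes. The alternatives changed normalization, filter, moderation, probe set choice, features and arrays fitted, the replicate block, and left out each array in turn.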

Additional observations from a re-analysis of the deposited data

Results flagged for a closer look

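Members with a further probe set gave a signal outside the measurement above, which used 1 probe set per gene. In a fit over all probe sets, the second probe set of SDHD had log2 intensities of 9.65 and 9.47 in shp63 ON cells, against 9.05 and 9.03 in control cells, a log2 fold change of 0.52 (limma adjusted p = 0.0176). The second probe set of ATP5MK was at 9.45 and 9.50 in shp63 ON cells and at 9.12 and 9.16 in control cells, a change of 0.33 (adjusted p = 0.0232). That of COX6A1 was at 12.67 and 12.61 in shp63 ON cells and at 12.34 and 12.40 in control cells, a change of 0.27 (adjusted p = 0.0344). In each of these 3 the shp63 ON arrays lay above the control arrays. The first probe sets of SDHD and COX6A1 were also called higher, while that of ATP5MK had 0.19 and an adjusted p of 0.0501. The second probe sets of SDHC, NDUFS4 and NDUFV2 had log2 fold changes of -0.17, -0.21 and -0.58 without being called, against 0.15, -0.04 and 0.32 for the first, so these 3 genes are uncertain. Groups of 2 arrays are too small for a check of single arrays that stand apart.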

How the results depend on the processing

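The direction of the median in shp63 ON was kept under all 17 alternatives, while counts of calls depended on the variance model and on single arrays. In shp63 ON against control, the members called numbered 28 in the main setting, 16 with unmoderated variances and 12 to 28 when each array was left out in turn. A variance trend gave 41 higher and 1 lower (52.6% higher), and quantile normalization 34 higher and 2 lower. The lower counts came without control replicate 2 (12), control replicate 1 (14) and shp63 ON replicate 1 (15), fits in which fewer of all genes were called too. The median of 0.16 became 0.20 after quantile normalization, 0.21 after cyclic loess and 0.14 to 0.20 without single arrays. ATP5ME, ATP5PO, NDUFB5, NDUFS7, UQCR10, UQCRB, UQCRC1 and COX7A1 were called higher in every setting that tested them, where the dim filter did not test COX7A1. Of the other members called higher, ATP5PF was called in the fewest, 7 of 18. The share of all genes called higher in every setting is not given here, and the settings draw on the same arrays.

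In Nutlin-3 against control, 3 members were called in the main setting, 6 with a variance trend, 1 with unmoderated variances, 0 with all probe sets in the limma fit (7 at an unadjusted p under 0.05) and 0 to 2 without single arrays. The count was 0 without control replicate 1 (3 at an unadjusted p under 0.05) and control replicate 2 (8 at that p), and 1 without Nutlin-3 replicate 1. The median of 0.01 became 0.05 with each array centred, -0.02 after quantile normalization, -0.02 after cyclic loess and -0.01 to 0.03 without single arrays, so its sign is not settled. In shp63 ON against Nutlin-3, 37 members were called, 23 with unmoderated variances and 23 to 32 without single arrays, with 23 without shp63 ON replicate 1. The median of 0.16 became 0.11 with each array centred, 0.24 after quantile normalization, 0.21 after cyclic loess and 0.14 to 0.20 without single arrays. With the replicate block, members called numbered 3 in Nutlin-3 against control, 25 in shp63 ON against control and 36 in shp63 ON against Nutlin-3. The causes of these shifts were not tested. A single array left in a group was assumed to vary like the others.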

Other observations

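Ubiquinone carries electrons between the complexes, and of 11 measured genes of its synthesis 2 rose (18.2%, where 19.7% of all genes did) and 3 fell (27.3%, where 16.5% did) in shp63 ON cells. COQ9 and COQ5 rose by 0.57 and 0.46, and PDSS1, COQ8A and PDSS2 fell by 0.39, 0.36 and 0.24. With Nutlin-3 COQ8A, a kinase-like protein of the pathway, was at 8.17 and 8.02, against 6.97 and 7.12 in control cells, a log2 fold change of 1.05 (limma adjusted p = 0.000165). It was the only one of the 11 called, a share of 9.09%, near the 9.64% of all genes called higher. Of the 11, 4 had an unadjusted p under 0.05. Of 18 glycolysis genes 3 rose (16.7%) and 4 fell (22.2%) in shp63 ON cells, shares near those of all genes, with the glucose transporter SLC2A1 at 0.41 and PDK1, which inhibits pyruvate dehydrogenase, at -0.70. With Nutlin-3 limma called none of the 18, where 3 had an unadjusted p under 0.05.

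Of 14 genes that link p53 to metabolism, 9 rose (64.3%, where 9.64% of all genes did) and 1 fell (7.14%, where 8.89% did) with Nutlin-3. SESN1 was at 9.92 and 9.86 in Nutlin-3 cells, against 8.23 and 8.14 in control cells, a log2 fold change of 1.70 (limma adjusted p = 2.24e-05), and TIGAR rose by 1.47. In shp63 ON cells 3 of the 14 rose and 3 fell, 21.4% each and near the 19.7% and 16.5% of all genes, with SESN1 at -0.57 and TIGAR at -0.29.

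COXFA4, the current symbol of NDUFA4, lies outside the symbol patterns and the lists and is named here after its values were seen. It was at 7.98 and 7.87 in shp63 ON cells, against 7.53 and 7.52 in control cells, a log2 fold change of 0.40 (limma adjusted p = 0.0151). A probe set naming NDUFS5 with other genes had -0.22 in shp63 ON cells without being called, in the fit over all probe sets.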
